A study of Mus musculus with 36 samples.

Results

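The 181 genes described here had high counts at day 5 while mouse fibroblasts were turned into pluripotent cells, and much lower counts at either end. They were chosen from 21442 genes in the count table. In the means of the control (Wt) libraries a gene had to reach at least 500 normalised counts at day 5 of reprogramming and at least 8 times the mean plus 10 of each of 3 end states, namely the starting fibroblasts, the derived induced pluripotent stem cells and embryonic stem cells. Names beginning with the prefixes of keratins, claudins, chemokines, interleukins, matrix metalloproteinases, semaphorins and Eph receptors were set aside, which took 14 of 195 genes away. Because the day 5 Wt libraries and the Wt end states chose these genes, their high level at day 5 is a description of the rule and was not tested, and neither was the knockout against Wt at day 5.

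Reprogramming by the transcription factors Oct4, Sox2, Klf4 and c-Myc (OSKM) passes through intermediate cells that have left the fibroblast state but have not yet reached pluripotency. Such intermediates are known to take on epithelial features and to express, for a short time, genes of unrelated tissues, among them skin, nerve and blood. ZFP266, the protein removed in the knockout, is a KRAB zinc finger protein, a class that binds DNA and recruits repressors of transcription.

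The study asked how loss of Zfp266 changes gene expression along the way, by RNA-seq of 36 libraries, with 3 for each of 12 groups. Fibroblasts (MEFs, strain 129, passage 2, from embryos at day 12.5) carried Cas9 and a doxycycline-inducible OSKM cassette marked by mOrange, and received a lentivirus with a non-targeting guide (Wt) or a Zfp266 guide (KO), so that the MEF and day 3, 5 and 7 KO samples were populations of edited cells and not clones. Reprogramming cells were grown among unmodified 129 MEFs in doxycycline and vitamin C and were sorted for mOrange before RNA extraction, whereas MEF samples were harvested 96 h after transduction without doxycycline. Each iPSC library came from a clone picked at day 15 and grown without doxycycline in puromycin, and the ESC KO libraries came from genotyped clones made with a transfected Zfp266 guide plasmid. Nothing in the labels ties the libraries of a group to separate embryos, so the tests measure the spread between these samples, which may be technical.

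The libraries held 19224103 to 39610939 counts, and 3 reads corresponded to 2.31 to 5.22 normalised counts. Normalised counts are reads divided by a size factor for each library and are not corrected for gene length. The targeted transcript itself was not lower in the KO libraries: Zfp266 stood at 1531 ± 99.9 normalised counts in Wt and 1910 ± 122 in KO cells at day 3 (SD, n = 3, DESeq2 FDR 0.00883), and at 1468 ± 58.1 and 1537 ± 31.4 at day 7 (FDR 0.578). A guide edit can disrupt the protein without changing the transcript count, so this count does not check the labels. In 3 groups 1 library stood apart: the mean squared difference between its counts and those of each of its replicates, over that of counting error, was 99.2 and 103 for MEF KO replicate 3 (4.38 between the other pair), 38.0 and 47.6 for day 3 Wt replicate 2 (8.52) and 42.3 and 44.0 for day 7 Wt replicate 1 (6.02). No single iPSC library stood apart, but all iPSC pairs were wide, at 29.6 to 45.3 in Wt and 27.8 to 33.5 in KO. In bulk RNA, fewer cells of a type and less RNA per cell cannot be told apart, and this holds for every value given here.

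Across the stages the 181 genes rose from a trace to a visible share of the library and then nearly vanished. They took 0.0503% ± 0.000255 of normalised counts in MEF Wt libraries (SD, n = 3), 1.40% ± 0.0863 at day 3, 1.85% ± 0.0651 at day 5, 1.53% ± 0.053 at day 7, 0.058% ± 0.00499 in iPSC and 0.0563% ± 0.00298 in ESC. The typical gene, by the median of the group means, went from 22.6 normalised counts in MEF to 1030 at day 3, 1377 at day 5 and 1077 at day 7, and then to 24.0 in iPSC and 29.2 in ESC. The highest Wt mean of the 3 days fell at day 3 for 42 genes, at day 5 for 107 and at day 7 for 32. In KO cells the same split was 47, 121 and 13 genes. There were no reads in any MEF Wt library for 17 genes, and for 38 the Wt means of MEF, iPSC and ESC were all under 10 normalised counts.

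**Figure D1:**
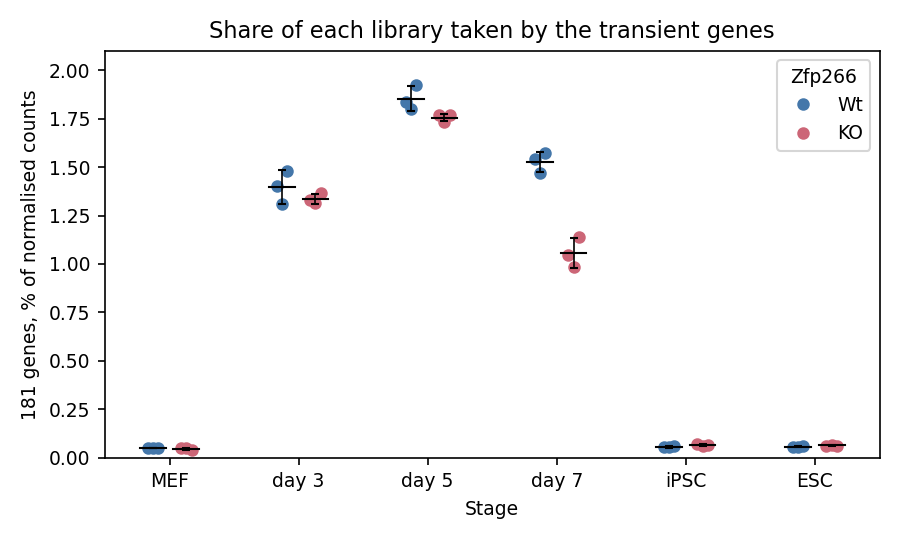
Share of each library's normalised counts (%, linear axis) taken by the 181 genes, by stage, with 1 point per library, Wt in blue and KO in red, and the mean with its SD (n = 3) in black. The share peaked at day 5, with a mean of 1.85% in Wt and 1.76% in KO libraries, and at day 7 the KO libraries (0.984 to 1.14%) lay below the Wt libraries (1.47 to 1.57%).

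Desmoplakin (Dsp, chr13:38151294-38198577, GRCm38, which anchors desmosomes to keratin filaments) had the highest count, with 63802, 54950 and 66739 normalised counts in the day 5 Wt libraries against group means of 722 in MEF, 449 in iPSC and 490 in ESC. Myc (chr15:61985391-61990374), the growth regulator that is itself 1 of the cassette's factors, had 27985, 21416 and 26465, and its reads can come from the cassette as well as from the chromosomal gene. Klf4, another cassette factor, was just outside the list, with a day 5 Wt mean of 29957. Uchl1 (chr5:66676091-66687234), a ubiquitin hydrolase abundant in neurons, had 20476, 21253 and 20674, and Tubb3, the beta-tubulin of neurons, had 14268, 13372 and 13679. The podocalyxin gene Podxl averaged 20313, the hemidesmosome integrin gene Itgb4 16119 and the cationic amino acid transporter gene Slc7a1 14078 normalised counts. Per kilobase of exon, which allows genes to be set beside each other, the order changed: Uchl1 led with 12746 normalised counts per kb at day 5, followed by Myc with 9308, Tubb3 with 7373, Nccrp1 with 6915 and Dsp with 6401.

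Measured against the end states, a different set stood out. The ratio of the day 5 Wt mean to the highest end-state mean plus 10 had a median of 23.5 and reached 582. Mal, a membrane proteolipid of myelin and of apical transport in epithelia, had 8100, 7984 and 7076 normalised counts at day 5 against end-state means of 1.44 to 3.25. Plakophilin 1 (Pkp1), a desmosome plaque protein, had 7554, 7746 and 8291 against 0 to 5.07, and advillin (Avil), an actin-bundling protein of sensory neurons, had 12914, 11449 and 11158 against 2.21 to 22.5. These levels follow from the rule, which asked for such a gap. The uncharacterised genes 4930550L24Rik on chromosome X and 2300002M23Rik on chromosome 17 averaged 3330 and 3862 normalised counts at day 5 with end-state means under 5. At the other edge, Ahsg (516) and Mroh6 (517) lay just inside the level threshold and Popdc3 (488) and Syt1 (480) just outside, and Adora2a (ratio 8.003) and Esrp2 (8.05) lay just inside the fold threshold with Klf4 and Tuft1 (7.99) just outside.

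The KO libraries, which the rule did not use, allowed the same rise to be tested in other samples. All 181 genes were DEGs (FDR < 0.05 and log2FC above 1 by DESeq2) higher in day 5 KO cells than in each of MEF KO, iPSC KO and ESC KO, with median log2FCs of 5.87, 5.69 and 6.05. The backgrounds for these single comparisons were 20.9%, 23.5% and 24.9% of genes tested, and 8.66% of all genes passed all 3. Without MEF KO replicate 3 the count was 181 as well. The same thresholds applied to KO means held for 149 of the 181 genes, and a list drawn from KO columns alone held 171.

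The positions of the genes are given as a description, and their clustering was not tested. All 181 matched the GENCODE M21 annotation of GRCm38, 177 as protein-coding genes, and they lay on 19 chromosomes. There were 8 runs of neighbours within 100 kb of each other, holding 17 genes. They included the kallikrein proteases Klk14, Klk11 and Klk10 (chr7:43690418-43785410), the desmogleins Dsg1a and Dsg1b (chr18:20310811-20410196), Lad1 with Pkp1, and the fetuins Ahsg and Fetub. The total exon length per gene had a median of 4.02 kb for the members, against 3.30 kb for all genes in the count table. The GC content, averaged over the annotated transcripts of each gene, had medians of 53.5% and 50.3%. An exon on the opposite strand overlapped 47 of the genes and 1 on the same strand overlapped 7, and since the strand setting of the counting was not given in the sources used here, reads of those pairs are uncertain.

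At day 3 few of the 181 genes were called different between KO and Wt cells in the main fit. By DESeq2, 3 were higher in KO cells (background 0.374% of genes tested) and 1 was lower (background 0.119%), with a median log2FC of -0.10 over the 181 genes and 0 over all genes tested. No gene of the 181 was a DEG in either direction (DESeq2 backgrounds 0.119% higher and 0.0437% lower). At an unadjusted p under 0.05, 12 were higher and 18 lower, and none of these passed a log2FC of 1 in size. Without Wt replicate 2, which stood apart, 2 were higher and 2 lower. With the replicate number as a block the counts were 7 higher and 6 lower. By edgeR 0 were called in either direction, with 12 and 12 at an unadjusted p under 0.05. A fit of the compared groups alone called more genes each way, as given below. For unadjusted counts and for counts outside the main fit no background is given. All 3 KO libraries lay below all 3 Wt libraries for 35 genes (background 8.29%) and above them for 15 (background 7.87%).

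Those that rose were Misp, Spink2 and Lgals7. Misp, which orients the mitotic spindle, had 283, 224 and 217 normalised counts in Wt and 387, 385 and 353 in KO cells (log2FC 0.63, SE 0.12, DESeq2 FDR 0.000237). Lgals7, the galectin of stratified epithelia, had 395, 355 and 366 in Wt and 547, 749 and 497 in KO cells (log2FC 0.68, SE 0.16, FDR 0.00438). Spink2, a Kazal-type serine protease inhibitor, had 2549, 2337 and 2144 in Wt and 3116, 3176 and 2928 in KO cells (log2FC 0.39, SE 0.09, FDR 0.00397). In none of the 3 did the groups overlap. Without Wt replicate 3 or KO replicate 2 neither Lgals7 (FDR 0.0666 and 0.168) nor Spink2 (FDR 0.116 and 0.0961) was called, Lgals7 was also lost without Wt replicate 2 (FDR 0.0629), and Spink2 without KO replicate 1 (FDR 0.0574). Slc2a6, a glucose transporter of the GLUT family, was the gene that fell, from 812, 770 and 828 in Wt to 483, 424 and 507 in KO cells (log2FC -0.77, SE 0.15, FDR 0.000228). Its KO libraries all lay below its Wt libraries, at day 7 as well.

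At day 5 the values are given as a description, because the Wt libraries of that day had chosen the genes. A choice by high Wt values favours KO values below them, so the backgrounds beside these counts make no test. The median log2FC of KO over Wt was -0.11, against -0.01 over all genes tested, with a range of -1.50 to 0.82, 123 genes below 0 and 58 above. KO libraries all lay below Wt libraries for 62 genes (background 16.1%) and above them for 20 (background 16.1%). At the low end was Fgf3, a fibroblast growth factor of embryonic patterning, with 768, 693 and 752 normalised counts in Wt and 307, 214 and 262 in KO cells (log2FC -1.50, SE 0.28). The receptor gene Cd40 had 1554, 1685 and 1674 in Wt and 909, 808 and 950 in KO cells, and Dsp had nearly equal means of 61830 and 60761.

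By day 7 most of the genes were lower without Zfp266. By DESeq2 118 of 181 fell, or 65.2%, against a background of 16.1% of genes tested and of 24.2% among the 8435 genes with a day 5 Wt mean of at least 500. As DEGs, 61 were lower (33.7%, backgrounds 4.42% and 2.38%), and 1 gene, Nfatc2, rose (background 13.3%). No gene was a DEG higher by DESeq2 (background 3.95%) or edgeR, and Nfatc2 was the single gene higher at an unadjusted p under 0.05 in DESeq2, while edgeR had 2. For the unadjusted and edgeR counts no background is given. The median log2FC was -0.76, against -0.04 over all genes tested, and 168 of the 181 lay below 0. In 148 genes all KO libraries lay below all Wt libraries (backgrounds 26.6% and 38.9%), and in 2 they lay above (backgrounds 20.8% and 22.3%). Without Wt replicate 1, which stood apart, 106 fell, 57 of them as DEGs, and Nfatc2 was not called. Of the 118 genes that fell, 100 passed with each day 7 library left out in turn. Among 154 other genes with the same level and a ratio of 4 to 8, which were not in the list, 109 fell (70.8%) and 18 were DEGs lower (11.7%).

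**Figure D2:**
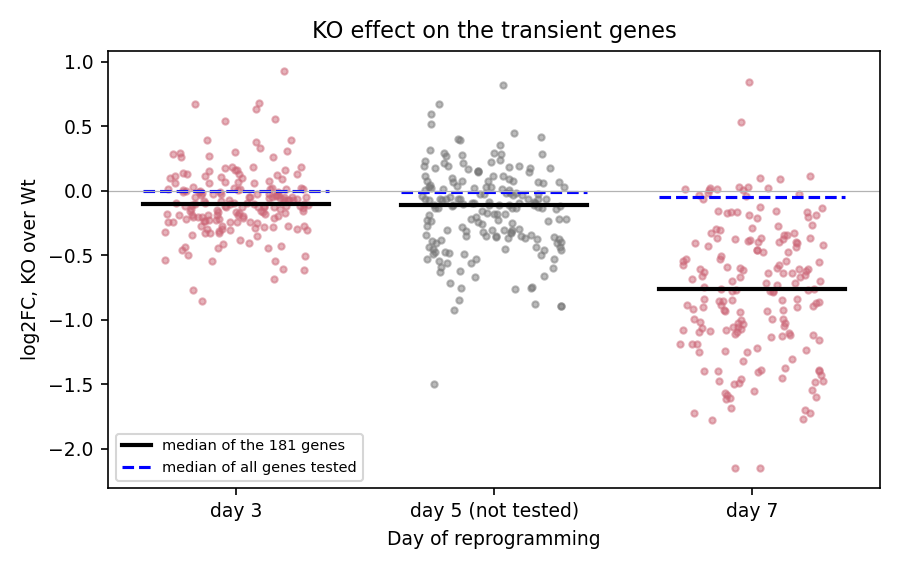
log2FC of KO over Wt for each of the 181 genes at days 3, 5 and 7 (1 point per gene, jittered sideways), with the median of the 181 genes as a black line and the median of all genes tested as a dashed blue line. The day 5 points are grey because that day's Wt libraries chose the genes. The medians were -0.10, -0.11 and -0.76.

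Among the genes with the largest falls at day 7, Ptk6, a non-receptor tyrosine kinase of epithelia, had 249, 229 and 336 normalised counts in Wt and 73.3, 46.4 and 64.5 in KO cells (log2FC -2.15, SE 0.24, DESeq2 FDR 2.98e-17). Fgf3 had 184, 325 and 375 in Wt and 53.2, 51.6 and 94.4 in KO cells (log2FC -2.15, SE 0.29, FDR 1.1e-11). The genes of this paragraph were named only where every KO library lay under every Wt library. That separation was therefore part of the choice. Apba2, a synaptic adaptor of the amyloid precursor protein, had 355, 272 and 419 in Wt and 100.4, 60.4 and 145 in KO cells (log2FC -1.77, SE 0.26, FDR 6.83e-10). Cd40, the TNF receptor family member by which T cells stimulate B cells, had 969, 900 and 874 in Wt and 257, 228 and 346 in KO cells (log2FC -1.72, SE 0.12, FDR 1.45e-40). For these 2 genes too the absence of overlap was part of the choice. The vesicular transporter gene Slc10a4 fell from 200, 236 and 338 to 70.3, 49.9 and 119 (log2FC -1.69, SE 0.29, FDR 1.92e-07), and Slc2a6 from 671, 572 and 684 to 207, 166 and 229 (log2FC -1.68, SE 0.16, FDR 5.58e-24). Gm45441 had a log2FC of -1.77 (SE 0.38, FDR 4.3e-05), and it is annotated as antisense to exons of Grwd1 and Grin2d, so its reads may be shared.

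**Figure D3:**
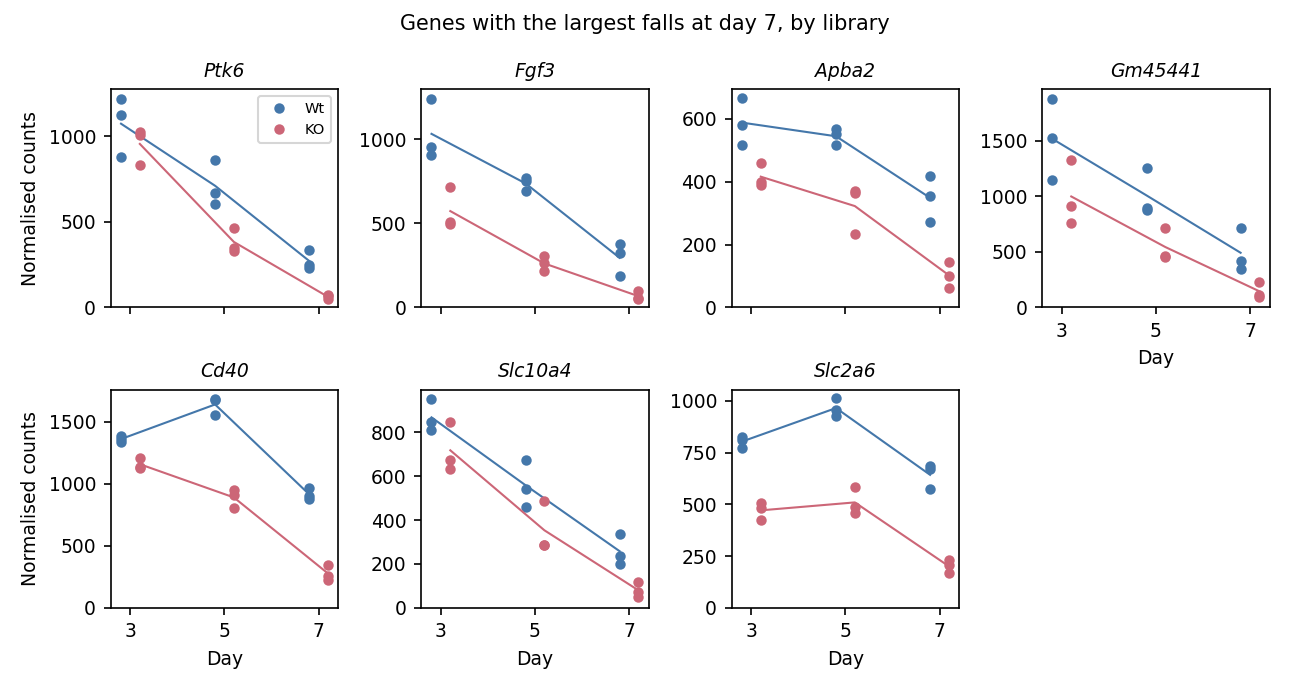
Normalised counts (linear axes from 0) at days 3, 5 and 7 of reprogramming for 7 of the 8 genes with the largest falls at day 7, with 1 point per library and a line through the group means, Wt in blue and KO in red. At day 7 the KO libraries lie below the Wt libraries in each panel, which was a condition for naming these genes. For Ptk6 the day 3 groups overlap, from 879 to 1217 in Wt and 833 to 1026 in KO.

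Mal and Ly6g6c were among the genes with the smallest differences at day 7. Mal had 7500, 8928 and 8761 normalised counts in Wt and 7557, 8844 and 8572 in KO cells at day 7 (log2FC -0.01, SE 0.10, DESeq2 FDR 0.953), and the sign turned with TMM factors and with edgeR (0.02 in both). Ly6g6c, a small GPI-anchored Ly6 protein, had 4031, 3970 and 3268 in Wt and 3848, 4055 and 3450 in KO cells (log2FC 0.01, SE 0.20, FDR 0.980). In both the groups overlapped, as they did for Podxl, with means of 19279 in Wt and 19654 in KO (FDR 0.939). Nfatc2, a calcineurin-dependent transcription factor, rose from 849, 889 and 812 to 1477, 1534 and 1570 (log2FC 0.85, SE 0.29, FDR 0.0172), with all KO libraries above the Wt libraries, but the call was lost, with an FDR of up to 0.0677, when Wt replicate 1 or 3 or KO replicate 2 or 3 was left out.

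Sequence before the start of transcription was available for part of the list. RefSeq promoter entries on GRCm38.p6 covered 129 of the 181 genes with 174 entries, and the 250 bases before each start were searched on both strands for CACCC, a core of sites bound by Klf factors, for TGANTCA, the AP-1 site, and for TATAAA, a form of the TATA box. CACCC occurred in 72.4% of the entries against 52% of all 32851 entries, TGANTCA in 9.77% against 6.75%, and TATAAA in 9.77% against 12.4%. The median number of CpG was 8 against 6, and the median GC content 56.8% against 52.4%, so the entries also differed in base composition. Among the 58 entries of genes that were DEGs lower at day 7, CACCC occurred in 75.9%, TGANTCA in 5.17% and TATAAA in 3.45%, with a median of 12 CpG. In the other 116 entries these values were 70.7%, 12.1%, 12.9% and 7. These are letters in a window and not sites known to be bound, and the shares were not tested.

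To show how different these windows are, 3 are printed from genes that fell and 2 from genes with the smallest change at day 7. They run 5′ to 3′ on the gene's strand, with CACCC or its reverse complement GGGTG, and TATAAA, in capitals. Slc2a6 (chr2:27027999-27028248, minus strand) has CACCC on each strand and 20 CpG. Slc10a4 (chr5:73006654-73006903, plus) has 1 CACCC and 13 CpG, with 21 bases inside an annotated exon, while the other 4 windows touch none. Avil (chr10:127000459-127000708, plus) has GGGTG and 1 CpG. Mal (chr2:127656696-127656945, minus) has none of the motifs, and Ly6g6c (chr17:35067075-35067324, plus) has TATAAA and 2 CpG.
Slc2a6: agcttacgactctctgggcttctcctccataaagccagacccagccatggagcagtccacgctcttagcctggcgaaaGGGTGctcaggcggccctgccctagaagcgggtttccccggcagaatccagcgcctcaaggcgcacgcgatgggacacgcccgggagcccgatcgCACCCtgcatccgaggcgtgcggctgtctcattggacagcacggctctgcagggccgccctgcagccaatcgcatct
Slc10a4: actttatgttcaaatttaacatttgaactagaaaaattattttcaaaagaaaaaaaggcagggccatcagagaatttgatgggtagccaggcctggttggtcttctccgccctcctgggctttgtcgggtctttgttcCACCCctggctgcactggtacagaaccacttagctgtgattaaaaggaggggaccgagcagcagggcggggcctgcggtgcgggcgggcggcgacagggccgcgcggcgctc
Avil: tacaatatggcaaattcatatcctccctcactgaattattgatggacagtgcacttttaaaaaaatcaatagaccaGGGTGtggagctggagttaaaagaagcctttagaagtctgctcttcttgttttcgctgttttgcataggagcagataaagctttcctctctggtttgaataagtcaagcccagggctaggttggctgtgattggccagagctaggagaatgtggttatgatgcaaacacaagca
Mal: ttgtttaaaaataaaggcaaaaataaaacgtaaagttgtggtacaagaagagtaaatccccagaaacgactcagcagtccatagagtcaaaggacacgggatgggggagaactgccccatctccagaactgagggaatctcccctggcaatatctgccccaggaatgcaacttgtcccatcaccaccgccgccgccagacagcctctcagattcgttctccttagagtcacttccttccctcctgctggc
Ly6g6c: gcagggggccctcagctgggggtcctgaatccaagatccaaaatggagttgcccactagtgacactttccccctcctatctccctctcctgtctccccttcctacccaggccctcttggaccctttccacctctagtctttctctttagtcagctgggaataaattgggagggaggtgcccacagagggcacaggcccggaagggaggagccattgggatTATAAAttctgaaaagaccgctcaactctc

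The genes were also grouped by what they are known to do, an assignment made after the list was known. Genes named below for their role alone, such as Ikzf1, Atf3 and Slurp1, were chosen after their values were seen. Over all genes tested 16.1% fell at day 7 and 4.42% were DEGs lower, and among genes with a day 5 Wt mean of at least 500 these shares were 24.2% and 2.38%. Of 18 genes of epithelial adhesion and cornification 9 fell, 3 of them as DEGs, with a median log2FC of -0.53. Dsp had 50990, 44662 and 53572 normalised counts in Wt and 29069, 26139 and 33080 in KO cells, which did not overlap, yet its log2FC of -0.76 (SE 0.32) had an FDR of 0.0637 by DESeq2 with all libraries in the fit. Pkp1 fell from 8504, 7032 and 7722 to 4777, 4182 and 5061 (log2FC -0.73, SE 0.09, FDR 2.62e-14). The desmosomal cadherin gene Dsc2 fell with a log2FC of -0.93 (FDR 0.00196), Dsg3 with -0.59 (FDR 0.00649), envoplakin (Evpl) with -0.78 (FDR 0.0232) and Lgals7, which had been higher at day 3, with -0.47 (FDR 0.00773). For Evpl the FDR was 0.0674 with the replicate block and up to 0.0969 without Wt replicate 1 or 3 or KO replicate 1 or 2. Dsg3 lost its call without Wt replicate 2 or 3 (FDR up to 0.0661) and Lgals7 without Wt replicate 1 (FDR 0.0988). Itgb4 (-0.21, FDR 0.724) and S100a14 (-0.19, FDR 0.299) were not called.

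Among 11 transcription factors and splicing regulators 9 fell, 4 as DEGs, with a median log2FC of -0.68. Ikzf1, the lymphoid factor Ikaros, had 300.2, 491 and 696 in Wt and 93.4, 177 and 257 in KO cells (log2FC -1.50, SE 0.38, FDR 0.000651). The stress factor Atf3 had 956, 1005 and 1244 in Wt and 489, 401 and 522 in KO cells (log2FC -1.18, SE 0.19, FDR 1.31e-08). The groups of both were apart. Ovol1, a zinc finger factor of epithelia, fell by 0.52 on the log2 scale (FDR 0.000608), Esrp2, an epithelial splicing regulator, by 0.55 (FDR 0.0333, and up to 0.159 with any day 7 library but KO replicate 3 left out), and Myc from a mean of 18799 to 11717 (log2FC -0.68, FDR 0.00212).

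The groups with the lowest medians were neuronal genes and receptors. Of 18 genes of the neuronal cytoskeleton, synapse and calcium signalling 16 fell, 11 as DEGs, with a median log2FC of -1.07. Tubb3 had 9315, 7952 and 8720 normalised counts in Wt and 3316, 2776 and 3790 in KO cells at day 7 (log2FC -1.40, SE 0.22, DESeq2 FDR 4.08e-09), and Uchl1 had 15308, 13408 and 14581 in Wt and 7134, 6290 and 7855 in KO cells (log2FC -1.02, SE 0.16, FDR 8.07e-09). Neither pair of groups overlapped. Of 16 receptors 14 fell, 10 as DEGs, with a median of -1.06. They range from the adenosine receptor Adora2a (-1.19) and the axon guidance receptor Robo2 (-1.49) to the kisspeptin receptor Kiss1r (-1.04), and Crhr2 (-0.36) and Npr3 (-1.002) were not called. Of 6 secreted signals 5 fell, 3 as DEGs, with a median of -0.94, among them Slurp1 (413, 645 and 592 in Wt, 186, 169 and 202 in KO, log2FC -1.57, FDR 3.12e-21), a secreted Ly6-type peptide of skin.

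Of 12 genes of lipid, aldehyde and choline metabolism 9 fell, 5 as DEGs, with a median of -0.88, led by Dgat2 (-1.54), which makes triglycerides, while Aldh3a1 stood at -0.04. Of 15 ion channels and transporters 8 fell, 5 as DEGs, with a median of -0.60. Those that fell included Slc10a4, Slc2a6, Slc7a1 (-0.53) and Trpv4 (-1.55), a calcium channel that responds to osmotic stress, whereas Cnga3 (-0.02) and Kcnk6 (-0.03) were not called. Of 11 proteases and inhibitors 5 fell, 3 as DEGs, with a median of -0.39, among them Spink2 at -0.27 (FDR 0.0111, but 0.231 by edgeR and 0.057 to 0.0868 without Wt replicate 1 or 2 or KO replicate 2). The 3 neighbouring kallikreins, serine proteases found in skin, were not called, and Klk10 had its KO libraries above its Wt libraries (1817, 1478 and 1233 in Wt, 2420, 2255 and 1887 in KO, log2FC 0.54, FDR 0.377). Of 6 genes counted as immune 4 fell, 1 as a DEG, with a median of -0.61. Each gene had 1 role, so Cd40 was counted with the receptors and Ikzf1 with the transcription factors. Of the other 68 genes 39 fell, 16 as DEGs, with a median of -0.71. Differences between these groups were not tested.

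**Figure D4:**
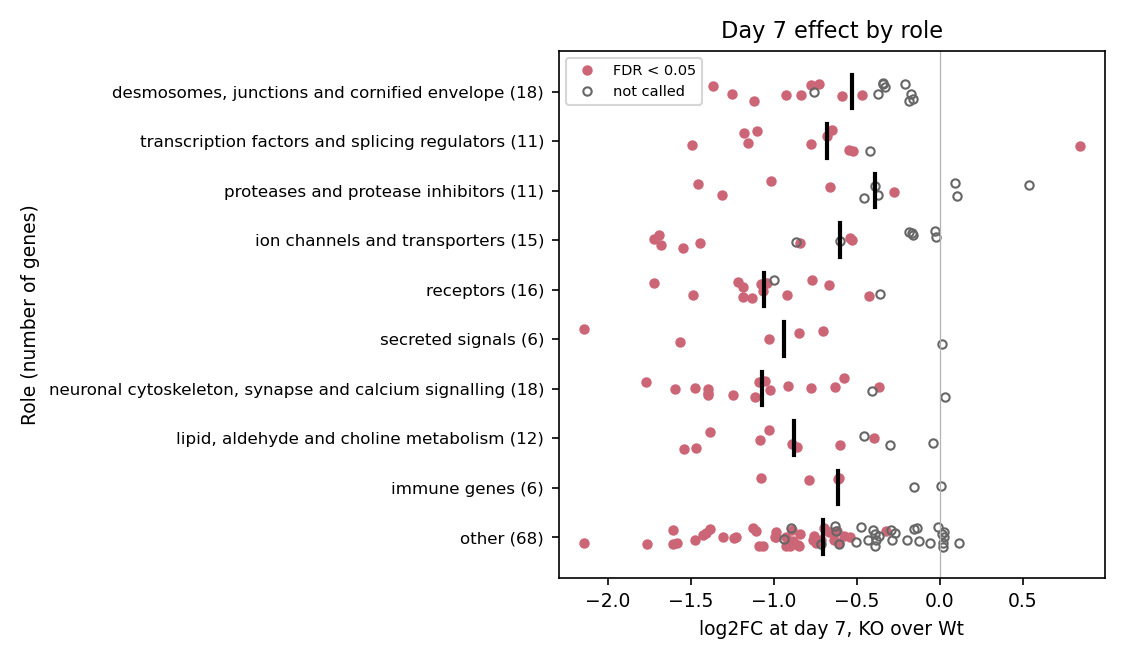
log2FC of KO over Wt at day 7 for each of the 181 genes by known role (number of genes in brackets), with filled points for FDR < 0.05 by DESeq2, open points for genes not called and a black bar at the median of each role. The neuronal genes (-1.07) and receptors (-1.06) have the lowest medians, and the 1 filled point above 0 is Nfatc2 (0.85).

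The effect of the knockout changed between day 3 and day 7. Tested as an interaction by DESeq2, the KO effect at day 7 was lower than at day 3 for 83 of 181 genes (45.9%, against backgrounds of 7.19% and, for genes with a day 5 Wt mean of at least 500, 9.92%), 39 of them by more than 1 log2 unit (background 2.19%). No gene had a higher effect at day 7 (background 5.82%), by DESeq2 or edgeR, and none at an unadjusted p under 0.05 by either. The median difference was -0.67. Without Wt replicate 1 of day 7 the count was 73, and without Wt replicate 2 of day 3 it was 75. With the replicate block 101 genes passed and with edgeR 60, while the backgrounds belong to the main fit alone. Among the 154 other genes with the same level and a ratio of 4 to 8, 53 had a lower effect at day 7 in the main fit (34.4%). Of these, 11 did so by more than 1 log2 unit (7.14% of the 154).

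The time course shows how this came about in values. In Wt cells 67 genes rose from day 3 to day 7 (background 23%) and 53 fell (background 19.9%). In KO cells 54 rose (background 28%) and 102 fell (background 26.9%). All 53 genes that fell in Wt cells fell in KO cells too, with median log2FCs of -0.83 and -1.75, and of the 61 that were not called in Wt cells 46 fell in KO cells. Of the 67 that rose in Wt cells 54 rose and 3 fell in KO cells, with medians of 1.54 and 1.00. From day 5 to day 7 in KO cells 143 of 181 fell (background 21.3%), 102 as DEGs (background 5.34%), and 2 rose (background 20.3%). The rule asked for a high day 5 level in Wt cells and low levels in iPSC and ESC. A fall after day 5 was thus favoured by the choice, and all genes are not a matched comparison for it. The 154 genes with a ratio of 4 to 8 took a similar course: 117 fell from day 5 to day 7 in KO cells (76.0%), 53 as DEGs (34.4%), and 3 rose. From day 3 to day 7, 48 of the 154 rose and 56 fell in Wt cells, and 36 rose and 92 fell in KO cells.

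Single genes show the forms this took. Avil in Wt cells averaged 7040, 11840 and 8043 normalised counts at days 3, 5 and 7, and in KO cells 7443, 10980 and 3773 (interaction log2 -1.17, SE 0.18, DESeq2 FDR 4.38e-08). Ptk6, already declining in Wt cells from 1073 to 710 and 271, went from 955 to 382 and 61.4 in KO cells (interaction -1.98, SE 0.32, FDR 1.29e-07). Misp rose in both, from 241 to 1943 and 2829 in Wt and from 375 to 3105 and 2716 in KO cells. Thus Misp was the higher in KO cells at day 3 and overlapped with Wt at day 7, with an interaction of -0.69 (SE 0.16, FDR 0.000783). S100a14, a calcium-binding protein of epithelia, went from 75.2 to 1366 in Wt and from 63.5 to 1200 in KO cells, and its interaction of 0.05 (SE 0.23) had an FDR of 0.921.

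**Figure D5:**
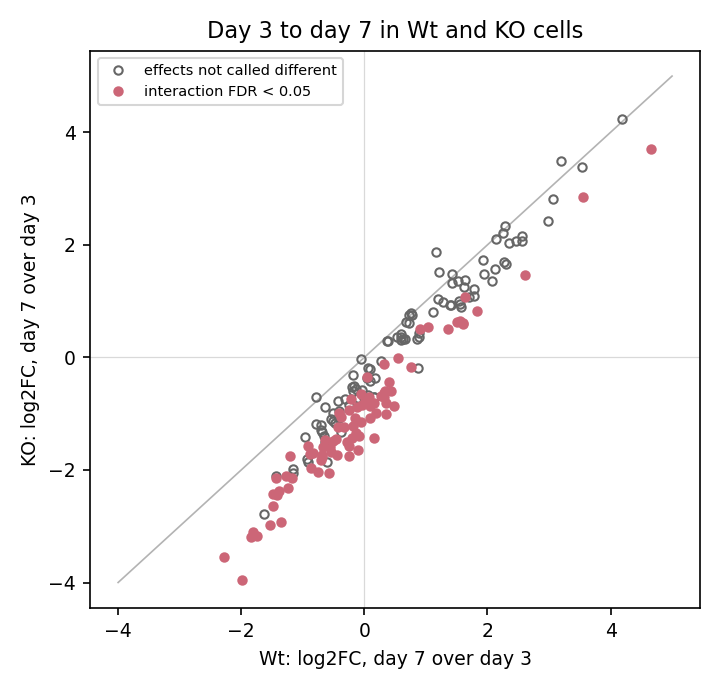
log2FC from day 3 to day 7 in Wt cells (horizontal) and in KO cells (vertical) for the 181 genes, with the line of equal change in grey, filled points for the 83 genes with an interaction FDR < 0.05 and open points for the rest. The filled points lie below the line. Both axes use the day 3 and day 7 libraries of their own genotype.

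Other things moved with these genes at day 7. All 15 pluripotency markers tested rose in KO cells, their summed level going from 8757 to 13533 normalised counts in Wt libraries to 35567 to 44517 in KO libraries, and 7 of 14 fibroblast markers fell, with sums of 45019 to 55118 in Wt and 15695 to 31263 in KO. At day 3, when DESeq2 called 2 pluripotency markers higher and 1 lower and edgeR called 0, these sums overlapped: 432 to 590 and 420 to 673 for pluripotency, and 56494 to 66106 and 59666 to 68880 for fibroblasts. Of 9 keratinocyte markers 4 fell at day 7, with sums of 11506 to 18453 in Wt and 9704 to 12493 in KO. Of 5 trophoblast markers 2 rose (sums of 983 to 1048 in Wt and 1254 to 1375 in KO). These were Eomes and Elf5, whereas Plet1, Plac1 and Prl3d1 were not called. Plet1 made up most of the trophoblast sums, with day 7 means of 915 in Wt and 1015 in KO cells. Cdx2, Tpbpa and Prl3b1 were not analysed here. Of 8 endothelial markers 2 rose (sums of 1663 to 2096 in Wt and 3886 to 3887 in KO). The endothelial markers that rose were Pecam1 and Tie1, whereas Cdh5, Kdr, Tek, Emcn, Egfl7 and Vwf were not called. Pecam1 was also high in pluripotent cells, with means of 1232 in iPSC Wt and 1372 in ESC Wt. Over all genes tested 13.3% rose and 16.1% fell at day 7. Of 9 macrophage markers DESeq2 called 0, with 1 higher at an unadjusted p under 0.05, and edgeR called 0 (sums of 372 to 820 and 573 to 605). None of the markers tested was at 0 in all day 7 libraries, and Trp63 was not analysed here. Counts of the cassette factors, in which cassette and chromosomal reads are summed, were also lower at day 7 in KO cells for Klf4 (22314 to 13888, log2FC -0.68, FDR 0.00118), Sox2 (15081 to 10599, -0.51, FDR 0.0101) and Myc, but not for Pou5f1, which encodes Oct4 (44937 and 43867, -0.03, FDR 0.857). Each had an FDR of 1 at day 3. The part of marker levels and of factor levels in the fall of the 181 genes was not tested.

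Lists of epithelial and signalling genes, most of them outside the 181, gave these counts, beside the 13.3% of all genes tested that rose at day 7 and the 16.1% that fell. Of 36 cornified envelope and junction genes tested at day 7, 13 fell and 1 rose (Dsg2, log2FC 0.63, DESeq2 FDR 0.00424), with a median log2FC of -0.42. Among its 28 genes outside the 181, 7 fell, such as corneodesmosin (Cdsn, -1.31, FDR 8.45e-08) and Sprr2a1 (-1.35, FDR 4.61e-05), whose day 7 group means equal those of its near copy Sprr2a2, so their reads are uncertain. Of 16 epithelial transcription factors 4 rose, none of them in the 181, and 3 fell, all in the 181. Those that rose were Klf5 (1.37, FDR 2.03e-36), Grhl2 (1.24, FDR 0.00121), Elf5 (1.37, FDR 0.000532) and Ehf (0.50, FDR 0.0415), and those that fell included Ovol1 and Esrp2. Of 23 NF-kB and inflammatory genes 3 rose and 4 fell, Cd40 among the latter. Of 13 EGF family ligands and receptors 2 rose and 4 fell, and of 21 serpins and secreted proteases 4 rose and 4 fell. Of 10 trophoblast and placental genes tested, from a list of 21, 4 rose and 1 fell. At day 3 the calls in these lists were Lgals7, Ehf (1.00, FDR 0.00293) and Erbb3 (1.51, FDR 1.03e-07), an EGF family receptor, all higher in KO cells by DESeq2. By edgeR Erbb3 was the single call in these lists at day 3.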

How the data were processed

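Bulk mRNA-seq (stranded NEB Ultra II libraries, single-end reads) was performed on 36 libraries in 12 groups of 3, named from the sample labels. Reads were trimmed with Cutadapt and aligned to GRCm38 with STAR, and the authors counted them per gene with Rsubread and deposited raw counts, which were used here for every test. The annotation release and strand setting are not given in the sources used here. The deposited normalised counts (a signal scale, counts divided by DESeq2 size factors) chose the genes, and they were recomputed from the counts to within a relative difference of 6.88e-15. The deposited log table, batch-corrected by the authors, and their comparison tables of fold changes and p-values were not used, except that gene names were read from a comparison table. Library preparation dates, which the study treats as a batch, are not in the labels used here, so no within-batch value was computed and the batch and the groups cannot be told apart.

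DESeq2 1.42.0 (R 4.3.3) was fitted to all 36 libraries with 1 factor of 12 levels, median-ratio size factors, Wald tests, default filtering and no shrinkage. A gene was called at a Benjamini-Hochberg FDR < 0.05 over all genes tested, and as a DEG with a log2FC above 1 in size as well. Differences between days were tested as interaction contrasts. The alternatives were edgeR 4.0.16 quasi-likelihood, TMM factors, a low-count filter (10 counts in 3 libraries), the compared groups alone, a fold-threshold test, a replicate block, each library left out in turn and other thresholds for membership. On simulated data only the day 7 comparison of KO with Wt was tried, with DESeq2 and edgeR, and the other steps were not. Same-numbered Wt and KO libraries tended to deviate together at day 3 (correlations 0.456, 0.101 and 0.272) and day 7 (0.339, 0.172 and 0.392). Libraries of unlike number gave -0.377 to 0.126 at day 3 and -0.361 to -0.00933 at day 7. Day 3 Wt replicate 2 was no closer to KO replicate 2 (0.101) than to KO replicate 3 (0.126). The replicate block takes the numbers as pairs, whereas the main tests leave the libraries unpaired. Total counts per library ranged from 19224103 to 39610939, and the number of replicates, 3, limits the precision.

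The genes and lists were chosen with earlier results of these data known. Named by rule were the 8 genes with the highest day 5 Wt mean, the 5 with the largest ratio, the 8 DEGs with the largest falls and up to 5 DEGs with the largest rises at day 7, up to 5 called each way at day 3 by FDR, all without overlap of groups, the 3 with the smallest change at day 7, the 2 nearest to each threshold on either side, and those in a gene list. A few genes that this rule names are included in the counts but not reported here singly. Other names were chosen after their values were seen. Gene positions came from GENCODE M21 and promoter sequences from RefSeq on GRCm38.p6. Figures were drawn with matplotlib 3.10.9.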

Additional observations from a re-analysis of the deposited data

Results flagged for a closer look

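For 83 of the 181 genes the KO effect was lower at day 7 than at day 3 by the DESeq2 interaction test, which is what marks them for a closer look. Among the genes named by rule, the difference (day 7 minus day 3, log2) was -1.98 for Ptk6, -1.49 for Cd40, -1.42 for Slc10a4, -1.33 for Tubb3, -1.30 for Fgf3, -1.27 for Apba2, -1.17 for Avil, -1.15 for Lgals7 and -1.0 for Adora2a. It was -0.93 for Uchl1, -0.91 for Slc2a6, -0.85 for 2300002M23Rik, -0.69 for Misp, -0.67 for Spink2, -0.49 for Pkp1 and -0.40 for 4930550L24Rik. Misp, Spink2 and Lgals7 had been higher in KO cells at day 3. Dixon's test for a far sample was not applied, since every group held 3 libraries.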

How the results depend on the processing

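At day 3 the counts of genes that rose and fell, 3 and 1, became 8 and 15 with the compared groups alone, 7 and 6 with the replicate block, and 0 and 0 with edgeR or the fold-threshold test. At day 7 the genes that rose, 1, became 2 with the compared groups alone and 0 with the fold-threshold test, which asks for a log2FC beyond 1 and by construction calls fewer. Under that test 7 genes were lower at day 7 and 0 had a lower effect than at day 3, as fallen genes and as DEGs alike. The fold required for membership gave 333 genes at 4 and 111 at 16, of which 67.9% and 67.6% fell at day 7. With the rule read in KO columns, an alternative chosen after seeing the data, 58.5% of 171 genes fell. The cause of these changes was not tested. With the replicate block 128 genes fell at day 7, 63 as DEGs, and 101 had a lower effect than at day 3. For counts under settings other than the main fit no background over all genes is given. Apart from the day 3 counts and Evpl, the block ended no call of a gene named by rule. Leaving out 1 library gave 1 to 3 genes risen and 1 to 2 fallen at day 3. It gave 0 to 1 risen, 105 to 116 fallen and 48 to 71 DEGs lower at day 7, and 68 to 88 with a lower effect, 26 to 54 as DEGs. The number fallen at day 3 was 2 without Wt replicate 2, and the genes risen from day 5 to day 7 in KO cells, 2, were 1 without any one of the day 7 KO libraries. Signs turned for genes near 0. For Mal at day 7 the log2FC was 0.021 with TMM, 0.021 with edgeR and 0.029 with the compared groups alone, and for Podxl at day 3 it was 0.0011 with the latter. With 1 library left out, day 3 values ran from -0.088 to 0.057 for Dsp, -0.035 to 0.028 for Podxl, -0.055 to 0.106 for Itgb4, -0.149 to 0.025 for Tubb3 and -0.057 to 0.081 for Mal. Day 7 values ran from -0.011 to 0.049 for Podxl, -0.087 to 0.053 for Mal, -0.081 to 0.073 for Ly6g6c, -0.055 to 0.179 for Ahsg and -0.096 to 0.139 for Mroh6. Depth limits low values: 3 reads equal 2.31 to 5.22 normalised counts, so end-state means under that are not distinguishable from none.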

Other observations

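The 14 genes set aside by name were mostly keratins, with Krt8 at 46545, Krt17 at 14998 and Krt14 at 11646 normalised counts in day 5 Wt cells, and 10 of the 14 fell at day 7 by DESeq2, 6 of them as DEGs. Among the 181 genes, the median log2FC from day 3 to day 7 in Wt cells was 1.58 for the 6 genes counted as immune, 0.66 for the 18 genes of desmosomes and junctions and -0.57 for the 16 receptors. Cd40, with Wt means of 1359 at day 3 and 914 at day 7, was counted with the receptors. The medians were not tested against each other.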
